A study of Oryza sativa Japonica Group and Oryza sativa Indica Group with 16 samples.

Results

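Flag leaves of IRAT109 were compared with flag leaves of ZS97 in well-watered plants, before any drought was applied. IRAT109 is an upland japonica rice that is known as drought-resistant, and ZS97 (Zhenshan 97) is a paddy indica rice that is known as drought-sensitive. The comparison rests on 4 arrays of stage D0, 2 biological replicates of IRAT109 and 2 of ZS97, out of 16 arrays in the series. All leaves came from plants at the reproductive stage before flowering, grown in pipes, and only the middle of the green blade was sampled. The relative water content stated for D0 leaves was 94% to 95%. The other 12 arrays hold both genotypes at D1, D2 and D3, with stated water contents of 83% to 88%, 74% to 78% and 65% to 69%, and they are used here to see which D0 differences were also present in stressed leaves. Each genotype is a single cultivar, so any difference belongs to these 2 cultivars and not to upland or paddy rice at large. Every one of the 57381 probe sets of the Affymetrix Rice Genome Array was tested.

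The flag leaf is the last leaf formed before the panicle emerges and supplies much of the sugar that fills the grain. It perceives day length and sends florigen to the shoot tip, it builds and later dismantles its photosynthetic apparatus, and it keeps a set of defence genes in readiness. Upland and paddy cultivars, and japonica and indica rice, were separated long ago and differ in the sequence and the presence of many genes. On an array, a gene can give a weaker signal in a genotype because it is less transcribed, or because its sequence does not match the probes. These cannot be told apart from the intensities of a single probe set. In the same way, fewer cells of a type and less RNA per cell cannot be told apart in whole leaf tissue.

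In well-watered leaves 2793 probe sets differed between IRAT109 and ZS97, which was 4.87% of those tested. A difference was called at an adjusted p under 0.05 and a fold change over 2, on the scale of log2(intensity + 16). Rank products, a second method given below, used the same fold threshold. A fold change over 2 was itself seen in 4.87% of all probe sets. The fold threshold therefore set nearly all calls of both methods, and their match is no separate support. Of the called probe sets 1761 (3.07% of all) were higher in IRAT109 and 1032 (1.80% of all) were lower. Without the fold threshold 15879 probe sets passed, or 27.7% of all, and the balance turned: 7327 (12.8%) were higher in IRAT109 and 8552 (14.9%) were lower. Large differences therefore lay more often on the IRAT109 side, and small ones more often on the ZS97 side. This is a balance of signal, and whether the probes match 1 cultivar better than the other was not tested. The median over all probe sets was -0.04 as deposited, -0.03 after quantile normalization and -0.02 after median centring. The balance of small differences was read on the deposited scale only. The median difference of the called probe sets was 1.66 for the higher ones and 1.49 in size for the lower ones. A log2 difference over 4 was found for 155 higher and 56 lower probe sets. The extreme values, 8.51 and -6.34, belonged to probe sets without a gene symbol in the annotation.

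**Figure D1:**
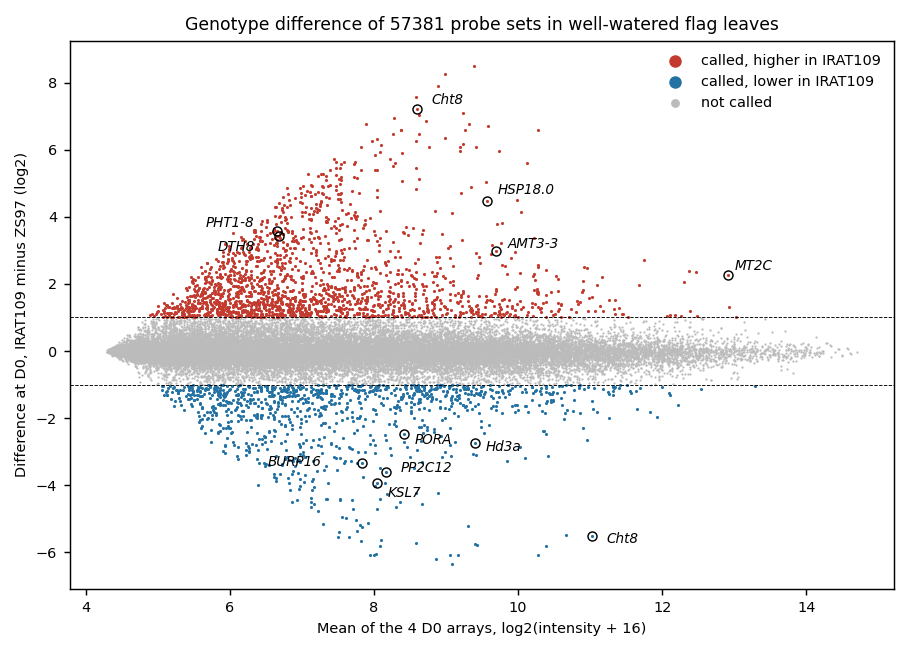
Each point is 1 of 57381 probe sets, with the mean of the 4 D0 arrays on the x axis, as log2(intensity + 16), and the difference IRAT109 minus ZS97 on the y axis (log2). Red points are the 1761 probe sets called higher in IRAT109, blue points the 1032 called lower and grey points the others; dashed lines mark a 2-fold difference, and more red than blue points lie beyond 4 units.

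The replicates were close. The 2 IRAT109 arrays differed by a median of 0.08 log2 units and the 2 ZS97 arrays by 0.07, against 0.12 between the genotype means. A difference over 1 unit was seen in 0.0157% of the probe sets between the IRAT109 replicates, in 0.00523% between the ZS97 replicates and in 4.87% between the genotypes. All 4 arrays had a median intensity between 37.4 and 38.1. Both arrays of 1 genotype lay above both arrays of the other for all 2793 called probe sets, but also for 59.6% of all probe sets, so this separation alone carries little weight. Most markers of green leaf were bright and most of those of other organs were dim. Summed over 8 probe sets, the green leaf list reached 58954 to 59992 in IRAT109 and 53348 to 55204 in ZS97, and only PORA in it was called. The 7 panicle and floret probe sets summed to 352 to 392 in IRAT109 and 301 to 314 in ZS97, with 0 called by limma or by rank products, 1 at an unadjusted p under 0.05, and 5 under an intensity of 32 on every D0 array. Probe sets for pollen and tapetum (4), for root (1) and for meristem (3) had 0 calls by both methods and 0 at an unadjusted p under 0.05, and 7 of these 8 stayed under 32. Of these marker probe sets of other organs only GLB1, a seed globulin among 6 endosperm ones, was called. It read 926 and 970 in IRAT109 against 2161 and 2422 in ZS97 (-1.26 ± 0.07). The glutelin gene GLUA-2 (373 to 507 over the 4 arrays) and the floral gene AP3 (211 to 306) also gave clear signal and were not called. In longer lists, 1 of 9 root probe sets and 1 of 17 for pollen and tapetum were called higher in IRAT109. Called lower were 2 of 12 for floral organ identity and 1 of 17 for endosperm proteins. For meristem 0 of 9 were called and 2 had an unadjusted p under 0.05. The part of other organs' RNA in the results was not tested. The 3 reference probe sets, for a ubiquitin-related and an actin gene, had 0 calls, 0 at an unadjusted p under 0.05 and a median difference of 0.05.

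Well-known flowering genes were among the calls. The florigen Hd3a, the mobile protein that carries the flowering signal out of the leaf, was lower in IRAT109. Its intensity was 269 and 224 in IRAT109 leaves, against 1591 and 1882 in ZS97 leaves, a difference of -2.74 ± 0.11 (SE, limma adjusted p = 6.1e-10) or 6.68-fold. DTH8, a subunit of the NF-Y transcription factor complex that delays heading in long days, ran the other way. It gave 341 and 298 in IRAT109, against 15.5 and 15.3 in ZS97, a difference of 3.42 ± 0.08 (adjusted p = 2.3e-12), and the ZS97 values are at the dim end of the scale. Hd1, the rice relative of CONSTANS that acts upstream of florigen, had 42.4 and 23.8 in IRAT109 and 169 and 193 in ZS97 (-2.03 ± 0.15). Thus of the 3 genes only DTH8 was higher in IRAT109.

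Several MADS-box genes were called lower in IRAT109. MADS15, a relative of APETALA1, had 27.6 and 27.3 in IRAT109 and 136 and 150 in ZS97 (-1.87 ± 0.07). Its close relative MADS14 was measured by 2 probe sets, which differed by -1.29 and -1.02. The second of them was just short of the 2-fold threshold after quantile normalization, without replicate 2 of IRAT109 and without replicate 1 of ZS97. MADS34, which helps to turn the shoot tip into an inflorescence, had 20.1 and 23.8 in IRAT109 and 129 and 160 in ZS97 (-2.07 ± 0.13). The floret genes MADS1 and MADS2 were lower in IRAT109 too, by -1.99 ± 0.10 and -1.28 ± 0.08. For MADS1 the arrays read 88.3 and 97.7 in IRAT109 and 397 and 440 in ZS97. The floret markers described above showed 0 calls. In the longer list of floral organ identity, however, 2 of 12 probe sets were called lower, with a lowest difference of -1.99. Whether floral RNA had a part in these differences was not tested. With 64 added in place of 16, MADS2 was short of the threshold (-0.85). In contrast MADS50, the rice relative of SOC1 and a promoter of flowering, was higher in IRAT109, with 792 and 781 against 273 and 285 in ZS97 (1.44 ± 0.08). MADS26, a regulator of stress responses more than of flowers, was higher as well, with 476 and 493 in IRAT109 and 48.2 and 47.8 in ZS97 (2.97 ± 0.07). In the list of heading date, florigen and clock genes, 2 of 43 probe sets were higher and 5 were lower, or 16.3% called, with a median difference of -0.05. Among 40 MADS-box probe sets 3 were higher and 6 lower (22.5%), with a median of -0.08. Over all probe sets the median was -0.04, and over the 3186 probe sets with a named gene 6.59% were called.

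Of the probe sets for photosynthesis and chlorophyll synthesis 8.82% were called, against 6.59% of those with a named gene. All of these calls were lower in IRAT109, and PORA differed most. PORA encodes the light-dependent enzyme that makes chlorophyllide, mainly in young and greening tissue. It gave 138 and 121 in IRAT109 and 793 and 800 in ZS97 (-2.48 ± 0.10 at an adjusted p of 4.4e-10). Its sister gene PORB, the form that works in green leaves, was far brighter and differed little, with 2481 and 2451 in IRAT109 and 2928 and 3034 in ZS97. The other called members were PSB28, a factor of photosystem II assembly (-1.23 ± 0.08), GLK1, a master regulator of chloroplast development (-1.14 ± 0.06), GSA and ALADH, enzymes of the early steps of chlorophyll synthesis (-1.16 ± 0.11 and -1.12 ± 0.09, the second short of the threshold at -0.97 without replicate 2 of IRAT109), and the cytosolic fructose-bisphosphatase CFBP1 of sucrose synthesis (-1.09 ± 0.08). With 64 added in place of 16, GSA (-0.62) and ALADH (-0.99) were short of the threshold. For GLK1 the arrays read 295 and 272 in IRAT109 and 639 and 645 in ZS97. In the list of photosynthesis, Rubisco and chlorophyll synthesis, 0 of 68 probe sets were higher and 6 were lower, and 52 had a difference below 0, with a median of -0.26 against -0.04 for all probe sets. At an unadjusted limma p under 0.05, 7 of them were higher and 40 lower, where 15.5% of all probe sets were higher and 20.9% lower, and rank products called 0 higher and 6 lower. The brightest probe sets of 2 abundant transcripts did not share this direction. The brightest Rubisco small subunit probe set read 21803 and 21199 in IRAT109 and 18605 and 17487 in ZS97. The antenna gene CAB2R read 17828 and 17925 in IRAT109 and 14114 and 16989 in ZS97, and neither was called. Dimmer probe sets of the Rubisco small subunit were lower in IRAT109 and not called (-0.46, -0.41 and -0.15). The list of chlorophyll breakdown and senescence had 0 calls among 11 probe sets by limma and by rank products, and 6 at an unadjusted p under 0.05, which 36.4% of all probe sets passed.

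Defence genes differed in both directions. WRKY62 and WRKY76, a pair of transcription factors that restrain pathogen responses and that are direct neighbours on chromosome 9, were both higher in IRAT109. WRKY62 had 460 and 523 in IRAT109 and 57.9 and 55.8 in ZS97 (2.80 ± 0.08). WRKY76 had 808 and 766 in IRAT109 and 189 and 200 in ZS97 (1.93 ± 0.14). Of 7 WRKY probe sets these were the only calls. Chitinases, which cut the chitin of fungal walls, also differed. Cht5 had 601 and 683 in IRAT109 and 56.0 and 47.9 in ZS97 (3.28 ± 0.13). Cht4, which lies on chromosome 4 with 2 genes between it and Cht5, had 94.1 and 76.7 in IRAT109 and 12.5 and 9.8 in ZS97 (1.90 ± 0.21), and was just short of the threshold with 64 added in place of 16 (0.99). Cht11 was brighter in both genotypes, with 8232 and 8237 in IRAT109 and 3842 and 4092 in ZS97 (1.05 ± 0.07). Of the germin family, whose members are cell wall proteins linked to oxidative defence, GLP2 was higher in IRAT109 (1.48 ± 0.09). GER5 was lower, with 20.2 and 51.1 in IRAT109 and 185 and 229 in ZS97 (-2.17 ± 0.20). Together the chitinase and germin list had 5 higher and 3 lower among 28 probe sets, 28.6% called, with a median of -0.03. These calls came from 6 genes and include probe sets of Cht8, described below, that were called in both directions (7.23 and -5.52).

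The diterpenoid phytoalexins are antifungal compounds that rice makes through gene clusters on chromosomes 2 and 4. The 2 genes described on chromosome 2 were lower in IRAT109 and the 2 on chromosome 4 higher, and the other members of the clusters were not tested as a group. KSL7 on chromosome 2, the synthase that makes the precursor of phytocassanes, had 53.4 and 48.8 in IRAT109 and 1018 and 1023 in ZS97 (-3.95 ± 0.12 at an adjusted p of 5.6e-11). A second KSL7 probe set read 16.8 and 15.3 in IRAT109 and 93.9 and 119 in ZS97 (-1.92 ± 0.12). The adjacent cytochrome P450 gene CYP71Z6 was lower too, with 414 and 363 in IRAT109 and 1335 and 1042 in ZS97 (-1.57 ± 0.13). On chromosome 4, CPS4, which commits the pathway to momilactones, had 228 and 185 in IRAT109 and 46.2 and 46.3 in ZS97 (1.83 ± 0.09). MAS, the momilactone A synthase with 3 genes between it and CPS4, had 165 and 174 in IRAT109 and 38.1 and 41.9 in ZS97 (1.73 ± 0.11). A probe set named CYP76M7, for a P450 that the annotation places on chromosome 6, was higher at dim signal, with 54.3 and 80.9 in IRAT109 and 21.6 and 15.5 in ZS97 (1.26 ± 0.12), and it was short of the threshold with 64 added in place of 16 (0.67). The list held 30 probe sets, of which 3 were higher and 3 lower (20.0%), with a median of 0.05.

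The chitinase gene Cht8 on chromosome 10 (also listed as Cht2, LOC4349267) shows how far a value can depend on the probe set. One probe set read 4089 and 5508 in IRAT109 and 13.4 and 18.2 in ZS97, a difference of 7.23 ± 0.16. Another of the same gene read 275 and 310 in IRAT109 and 13958 and 14284 in ZS97, a difference of -5.52 ± 0.10. One with shared probes was bright in both, with 6822 and 7063 in IRAT109 and 13392 and 15258 in ZS97 (-1.04 ± 0.10), and its call was lost after quantile normalization (-0.97) and without replicate 2 of ZS97 (-0.95). So Cht8 was called in both directions, and only a difference near the 2-fold threshold remained where a probe set was bright in both genotypes. Such genes were rare. Of 3444 genes with several probe sets, 409 had at least 1 call, and 83 of these had every probe set called the same way, 54 higher and 29 lower. In 312 only some were called, and in 14 the calls went both ways.

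LOC4337923 was the clearest of the other genes with opposite calls. Its first probe set read 431 and 514 in IRAT109 and 31.2 and 29.6 in ZS97 (3.39 ± 0.17). A second read 10.4 and 10.0 in IRAT109 and 564 and 533 in ZS97 (-4.43 ± 0.09). The last, whose name ends in _s_at, the suffix for probes shared between transcripts, read 1553 and 1604 in IRAT109 and 1650 and 1521 in ZS97 (-0.01). The shared probes gave the same signal in both genotypes, although the other 2 probe sets differed by more than 3 log2 units in opposite directions. Whether all of the shared signal came from this gene was not tested. LOC4333210 (3.48 and -6.07) and LOC4349188 (3.53 and -6.04) also had calls in both directions. Whether sequence under the probes differed between the cultivars was not tested, since no probe sequences or genomes of them were used here. Clear signal on both arrays of 1 genotype (over 128) with next to none in the other (under 16) was found for 147 probe sets in IRAT109 and 47 in ZS97, 67 and 12 of them with 1 gene symbol.

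**Figure D2:**
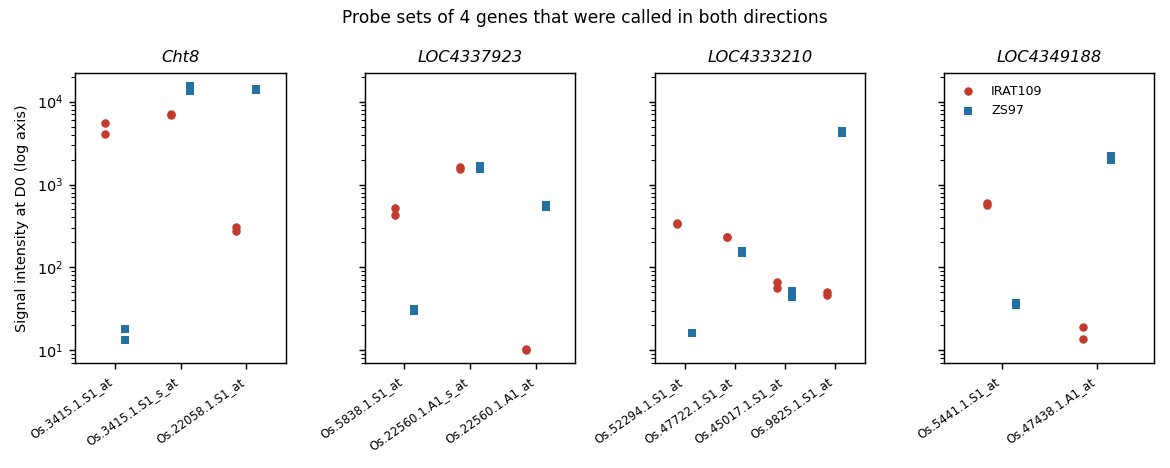
Signal intensity at D0 (log axis) of every probe set of Cht8, LOC4337923, LOC4333210 and LOC4349188, with 2 IRAT109 arrays (red circles) and 2 ZS97 arrays (blue squares) each. In each gene 1 probe set is bright in IRAT109 only and another is far brighter in ZS97, and the middle probe set of LOC4337923 reads 1521 to 1650 on all 4 arrays.

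Small heat shock proteins, chaperones that keep damaged proteins from clumping, gave calls in both directions, and most of the called ones described here were higher in IRAT109. HSP18.0 had 3547 and 3584 in IRAT109 and 142 and 150 in ZS97, a difference of 4.47 ± 0.07 (adjusted p = 1.1e-13) or 22.1-fold. Its second probe set gave 282 and 277 in IRAT109 and 23.3 and 26.9 in ZS97 (2.85 ± 0.09). HSP16.9A had 343 and 381 in IRAT109 and 102 and 122 in ZS97 (1.56 ± 0.09). HSP16.9B (1.79 ± 0.11) and HSP26.2 (1.30 ± 0.11) were higher too, at dimmer signal, and both were short of the threshold with 64 added in place of 16 (0.95 and 0.74). The opposite was seen for HSP16.0, with 34.4 and 38.6 in IRAT109 and 531 and 674 in ZS97 (-3.55 ± 0.25). The heat stress factor HSF24, of the class that lacks an activation domain, was higher in IRAT109 on all 3 of its probe sets, by 1.53, 1.09 and 1.04. The last of these lost its call after quantile normalization (0.99) and without replicate 1 of ZS97 (0.92), and the last 2 with 64 added in place of 16 (0.79 and 0.90). In the list of heat shock proteins and factors 10 of 67 probe sets were higher and 2 lower, or 17.9%, and the median was 0.00.

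Metal handling genes made up one of the larger groups. The metallothionein MT2C, a small cysteine-rich protein that binds metals and scavenges radicals, was among the brightest genes that differed. Its brightest probe set read 16796 and 17097 in IRAT109 and 3791 and 3196 in ZS97 (2.28 ± 0.07 at an adjusted p of 7.4e-11). The other 4 MT2C probe sets differed by 1.98 to 2.38, so all 5 gave the same answer, although their probes may read the same transcripts. NAS3, a nicotianamine synthase of iron chelation, had 514 and 697 in IRAT109 and 91.9 and 120 in ZS97 (2.34 ± 0.15). NAAT1, the aminotransferase of the next step, had 2602 and 2412 in IRAT109 and 965 and 914 in ZS97 (1.40 ± 0.08). IRO3, a bHLH factor of the iron deficiency response, was higher by 1.33 ± 0.09, and ZIP1, a zinc transporter gene on chromosome 1, by 2.15 ± 0.10.

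ART1, a zinc finger factor known for switching on aluminium tolerance genes in roots, was higher, with 895 and 923 in IRAT109 and 210 and 235 in ZS97 (1.96 ± 0.10). The name NRAMP4, of a family of divalent metal transporters, stands in the annotation beside 5 probe sets, and 2 of them, for a gene on chromosome 1 (LOC4324486), were called. One read 566 and 499 in IRAT109 and 1688 and 1717 in ZS97 (-1.65 ± 0.08), and the other 187 and 189 in IRAT109 and 610 and 659 in ZS97 (-1.67 ± 0.14). The 3 that were not called differed by -0.20 to -0.81, all on the same side. The vacuolar iron transporter VIT1.2 (-1.19 ± 0.11) and the metallothionein MT1B (-1.42 ± 0.13) were lower in IRAT109 as well, MT1B short of the threshold with 64 added in place of 16 (-0.97). In all, 12 of 95 probe sets for metal and silicon handling were higher and 5 lower (17.9%), with a median of -0.02. The 17 calls came from 12 genes.

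Nutrient transporters gave some of the largest single differences. PHT1-8, a high-affinity phosphate transporter, had 334 and 336 in IRAT109 and 9.8 and 17.0 in ZS97 (3.59 ± 0.14). AMT3-3, an ammonium transporter, had 2200 and 2436 in IRAT109 and 262 and 302 in ZS97 (2.97 ± 0.12). ALN, the allantoinase that recovers nitrogen from purines, had 2382 and 2286 in IRAT109 and 466 and 428 in ZS97 (2.34 ± 0.09). These 3 genes were clearly brighter in IRAT109. GLN1-2, a cytosolic glutamine synthetase, was lower by -1.18 ± 0.09. Of 85 probe sets for nitrogen, phosphate and sulfur 6 were higher and 3 lower (10.6%), with a median of -0.04. Among potassium transporters HAK5, the high-affinity uptake carrier, was lower, with 42.5 and 33.4 in IRAT109 and 162 and 138 in ZS97 (-1.63 ± 0.10). HAK16 was higher, with 1691 and 1575 in IRAT109 and 614 and 610 in ZS97 (1.39 ± 0.07).

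The share of drought response probe sets called before stress differed between lists. It was 6.06% for abscisic acid and 19.2% for dehydrins, LEA and BURP proteins, against 6.59% of probe sets with a named gene. The 19.2% rests on calls from 4 genes, most of them BURP genes, and the shares were not compared by a test. Of 33 probe sets for synthesis, breakdown and signalling of abscisic acid, the main drought hormone, 0 were higher and 2 were lower (6.06%), with a median of -0.07. Rank products, which share the fold threshold, gave the same counts for these probe sets and are no separate support. At an unadjusted p under 0.05, 8 were higher and 15 lower, where 36.4% of all probe sets passed. One of these was PP2C68, a phosphatase of the group that damps the hormone's signal, with 139 and 160 in IRAT109 and 355 and 371 in ZS97 (-1.20 ± 0.08). Of 32 aquaporin probe sets PIP1-3, with 1006 and 1056 in IRAT109 and 2609 and 3205 in ZS97, was lower (-1.47 ± 0.09). PIP2-6 was higher (1.10 ± 0.09), and the aquaporin median was 0.00. PP2C12, another phosphatase, was among the most different genes, with 60.9 and 72.3 in IRAT109 and 988 and 997 in ZS97 (-3.61 ± 0.12).

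BURP proteins are plant-specific cell wall and stress proteins, and 3 of their genes were called. BURP16, related to the beta subunit of polygalacturonase, had 56.8 and 54.6 in IRAT109 and 792 and 628 in ZS97 (-3.33 ± 0.10). BURP17 had 297 and 221 in IRAT109 and 22.4 and 20.0 in ZS97 (2.87 ± 0.11). BURP2 had 292 and 289 in IRAT109 and 106 and 112 in ZS97 (1.29 ± 0.15). The drought-induced BURP3 was not called, with 498 and 482 in IRAT109 and 392 and 385 in ZS97 (0.32 ± 0.07). The salt-induced lectin gene salT was higher in IRAT109, with 160 and 168 against 29.3 and 54.4 in ZS97 (1.67 ± 0.17) and a second probe set at 1.29 ± 0.16, which was short of the threshold with 64 added in place of 16 (0.72). Of 26 probe sets for dehydrins, LEA and BURP proteins 4 were higher and 1 lower (19.2%), with a median of 0.07. The calls came from 4 genes, 3 of them the BURP genes above, so this share says little about dehydrins and LEA proteins.

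Growth and cell wall genes added a few well-known names. GA20ox2, the gibberellin synthesis enzyme behind the semidwarf trait, had 62.2 and 58.0 in IRAT109 and 236 and 224 in ZS97 (-1.69 ± 0.11). In the phenylpropanoid pathway, which makes lignin and flavonoids, 7 of 49 probe sets were higher and 0 lower (14.3%), with a median of 0.12. At an unadjusted p under 0.05, 23 were higher and 20 lower, where 36.4% of all probe sets passed, and rank products called 7 higher and 0 lower. The called ones included 3 of the 5 probe sets of the entry enzyme PAL (1.04 to 1.25, the weakest short of the threshold at 0.96 without replicate 1 of IRAT109 at 0.90 without replicate 1 of ZS97 and at 0.62 with 64 added in place of 16), the ligase-like gene 4CLL4 (2.51 ± 0.09) and the methyltransferase COA20 (1.58 ± 0.08). For 4CLL4 the arrays read 620 and 587 in IRAT109 and 90.3 and 94.9 in ZS97. Several lists had few calls past the fold threshold. Sugar transport, sucrose and starch had 1 call among 106 probe sets, auxin 2 among 84, and homeobox factors, leaf shape, MAP kinases and meiosis had 0 among 53, 24, 19 and 22, by limma and by rank products. At an unadjusted p under 0.05 these 4 lists had 24, 11, 9 and 9 probe sets, and the sugar and auxin lists 49 and 38, where 36.4% of all probe sets passed, so small differences were not rare in them.

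The largest named differences also held genes outside these groups. AGO18, an Argonaute protein of antiviral RNA silencing, had 822 and 794 in IRAT109 and 105 and 99.5 in ZS97 (2.80 ± 0.16). VDAC1, a channel of the outer mitochondrial membrane, had 418 and 502 in IRAT109 and 44.4 and 38.5 in ZS97 (3.05 ± 0.11). FBA3, a fructose-bisphosphate aldolase, had 201 on both IRAT109 arrays and 13.0 and 17.3 in ZS97 (2.81 ± 0.11). In all 3 the arrays of IRAT109 lay far above those of ZS97. The leucine-rich repeat protein gene IRL3 (2.63 ± 0.10) and the helicase gene MCM9 (2.39 ± 0.16 and 2.01 ± 0.06) were higher in IRAT109 as well. A histone gene, H2B.10, was lower, with 95.9 and 137 in IRAT109 and 998 and 864 in ZS97 (-2.85 ± 0.14). In all, 210 probe sets of 185 named genes were called, 129 higher and 81 lower.

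**Figure D3:**
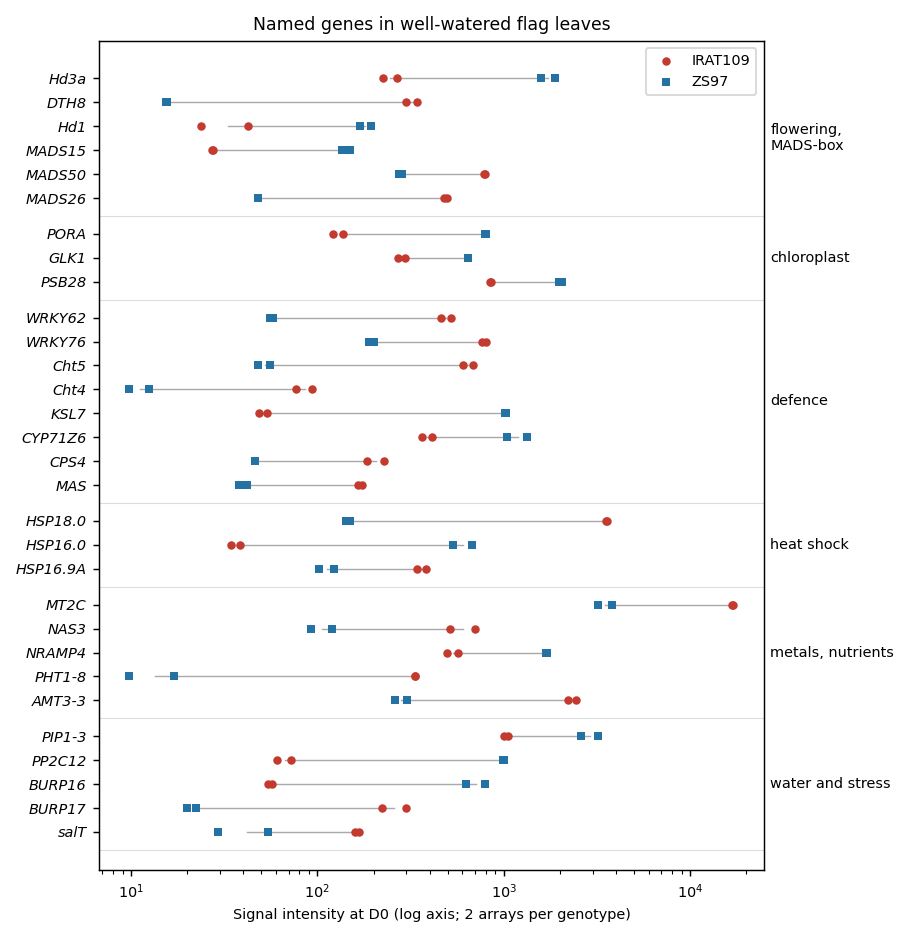
Signal intensity at D0 (log axis) of 30 genes by function, with 2 IRAT109 arrays (red circles) and 2 ZS97 arrays (blue squares) per gene; grey lines join the genotype means. The colours do not overlap in any row, as in all 2793 called probe sets and in 59.6% of all probe sets. The widest gap is that of PHT1-8, HSP18.0 and DTH8 on the IRAT109 side and of KSL7, PP2C12 and HSP16.0 on the ZS97 side.

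The same contrast was then read on the 12 drought arrays, which the D0 contrast does not use. Averaged over D1 to D3, 1738 of the 2793 D0 calls (62.2%) were called again in the same direction, 1095 of the higher and 643 of the lower ones. Another 22 were called in the opposite direction and 1033 were not called. Over all probe sets the drought contrast called 5.56%, with 3.01% higher in IRAT109 and 2.54% lower. By stage, the share called again was 64.2% at D1, 62.0% at D2 and 59.8% at D3, and 1486 (53.2%) were called the same way at every stage. Over all probe sets 5.53% were called at D1, 6.65% at D2 and 5.60% at D3. A sequence difference under the probes would be present at every stage too, so expression and sequence cannot be told apart by repetition under drought. Across the D0 calls the D0 and drought differences correlated with r = 0.88, and across all probe sets with r = 0.76. These are descriptions across probe sets, which are not independent, and the calls were selected by their D0 value.

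**Figure D4:**
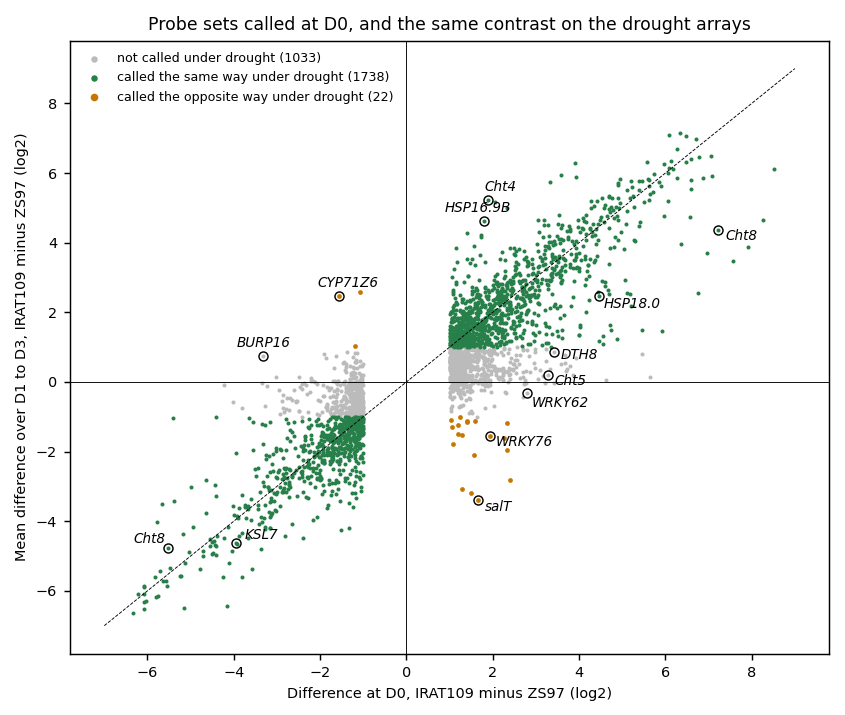
Each point is 1 of the 2793 probe sets called at D0, with its D0 difference on the x axis and its mean difference over D1 to D3 on the y axis (both IRAT109 minus ZS97, log2); the dashed line marks equal values. Green points (1738) were called the same way under drought, orange points (22) the opposite way, and grey points (1033) were not called.

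Lasting differences included MADS26, KSL7 and PP2C12. Over the 6 drought arrays of each genotype, MADS26 ran from 1081 to 1335 in IRAT109 and from 135 to 163 in ZS97, and its drought difference of 2.93 was close to the 2.97 at D0. KSL7 ran from 14.9 to 24.5 in IRAT109 and from 666 to 1242 in ZS97 (-4.62). PP2C12 ran from 70.9 to 144 in IRAT109 and from 1189 to 1452 in ZS97 (-3.35). Hd1, GA20ox2, VDAC1, MCM9, IRL3 and both called NRAMP4 probe sets were called the same way under drought as well.

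Whether a difference was larger in well-watered leaves was tested directly, as the D0 contrast minus the mean drought contrast, which uses the D0 arrays again. It was called for 1764 probe sets (3.07% of all), and 781 of them were D0 calls, 28.0% of those. In 639 of the 781 the D0 difference was the larger one, and in 142 the drought difference was. These 781 were selected for a large D0 difference, so such an excess is built in and does not show that differences shrink under drought. Over all probe sets 4.87% were called at D0 and 5.56% for the drought mean. DTH8 lost most of its difference, with 31.0 to 54.2 in IRAT109 and 11.7 to 18.4 in ZS97 under drought (0.86). Hd3a was dimmer in both, with 11.9 to 20.6 in IRAT109 and 19.1 to 154 in ZS97 over the drought arrays. Its difference was still -2.25 and called at D1, and -0.96 at D2 and -0.32 at D3 were not called, so its mean of -1.18 rests on D1. The brightest MT2C probe set reached 20982 to 23311 in IRAT109 and 16218 to 18122 in ZS97 (0.32). WRKY62 read 30.2 to 40.1 in IRAT109 and 25.3 to 72.9 in ZS97 (-0.32). For all 4 the difference at D0 was larger than the drought mean. Of the drought means only that of Hd3a was called, and DTH8 was called at D2 alone (1.10).

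A few genes changed sides or grew apart. WRKY76 read 67.7 to 127 in IRAT109 and 205 to 486 in ZS97 under drought (-1.54, against 1.93 at D0). CYP71Z6 read 385 to 438 in IRAT109 and 40.3 to 112 in ZS97 (2.47, against -1.57 at D0), so that it no longer ran with its neighbour KSL7. salT read 97.6 to 416 in IRAT109 and 229 to 5921 in ZS97 (-3.40, against 1.67 at D0). These were called in opposite directions in well-watered and stressed leaves. Cht4 widened, with 880 to 1975 in IRAT109 and 14.6 to 36.9 in ZS97 (5.24, against 1.90 at D0). HSP16.9B widened as well, with 932 to 1984 in IRAT109 and 24.8 to 55.1 in ZS97 (4.62, against 1.79 at D0).

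**Figure D5:**
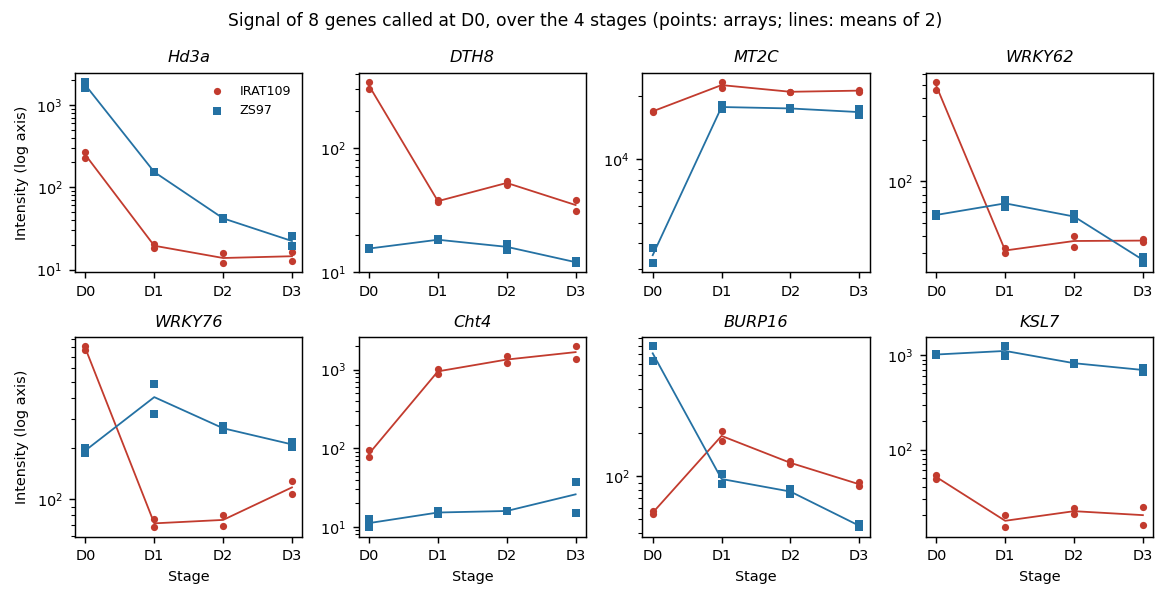
Signal intensity (log axes) of 8 genes called at D0 over the stages D0 to D3, with IRAT109 as red circles and ZS97 as blue squares; points are arrays and lines join the means of 2. The genotypes meet or cross under drought for WRKY62, WRKY76 and BURP16, are closer at every drought stage than at D0 for MT2C and DTH8, come close for Hd3a only by D3, stay apart for KSL7 and move apart for Cht4.

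The calls were spread unevenly over probe set types and chromosomes. Of 31694 probe sets whose names start with Os., built on known transcripts, 7.35% were called, and of 25500 that start with OsAffx 1.82%. By mean D0 intensity the share was highest, at 11.8%, between 64 and 256, and was 0.00629% under 16, where the added constant shrinks differences, and 5.53% above 1024. Among probe sets with 1 gene symbol, 6.84% were called. By chromosome the share was lowest on chromosome 3 with 5.28% (159 of 3009) and highest on chromosome 11 with 10.9% (116 of 1068), followed by chromosomes 12 with 8.99% and 10 with 8.91%. These shares were not tested, since neighbouring genes and probe sets of 1 gene are not independent.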

How the data were processed

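Total RNA of flag leaf blades was hybridised to 16 Affymetrix Rice Genome Arrays, 2 for each of 8 combinations of genotype and stage. The authors deposited 1 table of processed signal intensities on a linear scale. The labels name MAS5 as its source and the study's methods name another summary, and which one made the values is not settled. Intensities were used as log2(intensity + 16), with no further normalization. limma 3.58.1 in R 4.3.3 fitted 8 group means to all arrays (8 residual degrees of freedom), with Benjamini-Hochberg adjustment over 57381 probe sets, and the code was tested on simulated data. With 2 arrays per group precision is limited by their number, and an exact permutation test could not go below p = 0.333. P-values measure the spread between the replicate arrays as labelled. The replicate numbers did not pair samples.

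Gene names came from the platform annotation joined to a RefSeq gene table: 22436 probe sets had 1 gene symbol, 95 several and 34850 none, and 3186 had a gene name. Where 1 name belongs to several loci, the locus is given. Named genes were the 15 largest called differences in each direction, up to 4 called members of each gene list, genes the study names, markers, and genes with probe sets called both ways, and the text uses fewer. Members and lists were chosen with earlier results of these data known. Alternatives covered the added constant, normalization, a filter on dim probe sets, the fold threshold, probe set choice, the variance model, rank products, a replicate block and leaving out each D0 array.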

Additional observations from a re-analysis of the deposited data

Results flagged for a closer look

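The genotype difference in well-watered leaves was compared with the mean genotype difference under drought by testing the difference between them (limma, same fit). It passed for 1764 of 57381 probe sets, 3.07%, and for 781 of the 2793 probe sets called at D0. Among the 91 probe sets named above, 44 passed, the weakest at an adjusted p of 0.00095. The values that follow are the D0 difference minus the drought difference, on the log2 scale.

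The D0 difference was the larger and in favour of IRAT109 for AMT3-3 (1.63), BURP17 (2.59), COA20 (1.55), CPS4 (1.79), CYP76M7 (1.29), Cht5 (3.08), 1 probe set of Cht8 (2.86), DTH8 (2.55), HAK16 (1.91), HSF24 (2.41, 1.15 and 1.02), HSP18.0 (2.0), IRO3 (1.41), 1 probe set of LOC4333210 (1.35), MAS (1.52), MT2C (1.96, 1.67, 1.51, 2.02 and 1.98), NAAT1 (1.65), NAS3 (2.04), PHT1-8 (3.06), WRKY62 (3.12) and ZIP1 (2.02). The other strongly different probe sets of Cht8 and LOC4333210 were in favour of ZS97 at D0 (-5.52 and -6.07). It was the larger and in favour of ZS97 for BURP16 (-4.07), GER5 (-2.20), HAK5 (-1.06), HSP16.0 (-2.39), Hd3a (-1.56), MADS14 (-1.1), MADS15 (-1.15), MADS34 (-2.01) and PORA (-1.66). The drought difference was the larger for BURP2 (-1.02), Cht11 (-1.97), Cht4 (-3.34), HSP16.9B (-2.83) and MT1B (1.34). The call changed sides between D0 and drought for CYP71Z6 (-4.04), WRKY76 (3.47) and salT (5.08 and 4.37).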

How the results depend on the processing

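The main analysis called 1761 probe sets higher and 1032 lower in IRAT109 at D0, 1738 of them the same way under drought, and 1764 with a D0 difference unlike that under drought. With 64 added before the logarithm in place of 16, the counts were 1145, 654, 1062 and 1126, since a larger constant shrinks differences of dim probe sets. With no fold threshold they were 7327 higher, 8552 lower and 10185 the same way under drought, and with a fold over 4 they were 667, 291 and 643. With 1 probe set per gene symbol 777 were higher and 467 lower, out of fewer probe sets tested. Leaving out each D0 array in turn, which leaves 1 array assumed to vary like the others, gave 1752 to 1806 higher, 1028 to 1074 lower, 1730 to 1745 the same way under drought, 1791 to 1809 with unlike differences, and 88 to 90 of the 91 named probe sets called. The alternatives for the test of unlike differences were chosen after seeing the data.

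Same-numbered D0 arrays deviated from their group means with r = 0.06, and over 28 pairs of groups r ran from -0.41 to 0.26, so the numbers were not taken to pair samples. With the replicate number as a block the counts were 1761, 1032, 1738 and 1764. No named difference changed sign under the alternatives run for it, while the balance of higher and lower calls turned without the fold threshold. Of the 91 named probe sets, 12 were short of the threshold with the constant of 64 (ALADH, CYP76M7, Cht4, GSA, HSP16.9B, HSP26.2, MADS2, MT1B, 2 of HSF24, and 1 each of PAL and salT) and 3 after quantile normalization, and the filter on dim probe sets left 76 of them, all called. Dim signals limit the comparison, since under an intensity of 16 a 2-fold difference can hardly be reached.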
